A study of Homo sapiens with 6 samples.

Results

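The genes described here are 10 genes of the NRF2 pathway, listed by symbol and matched to the Ensembl identifiers of the count files, out of 60675 counted genes. They are the transcription factor gene NFE2L2 (NRF2), the gene of its repressor KEAP1, and the antioxidant target genes GCLC, GCLM, TXN, TXNRD1, SRXN1, NQO1, HMOX1 and OSGIN1. All 10 passed the filter on low counts, which left 18075 genes. The question was whether these genes rose together with glutathione S-transferase genes after knockdown of MTR4, an RNA helicase that works with the nuclear exosome. The RNA sequenced was that of PLC/PRF/5, an established hepatocellular carcinoma (HCC) cell line, in 3 control libraries and 3 libraries labelled MTR4 KD. The labels give no more than this. The study describes lentiviral short hairpin RNAs and, for its sequencing, cells before and after doxycycline-induced knockdown. If only the MTR4 KD libraries had doxycycline, the agent and the loss of MTR4 cannot be told apart. No library of doxycycline-treated scramble cells was used here. The study reports that doxycycline left the glycolytic genes it measured in scramble cells unaffected, but those are not the genes described here. Whether the 3 libraries of a group came from separate cultures is not given in the sources used here, and p-values then measure only the spread between these libraries. In such bulk RNA, fewer cells of a kind and less RNA per cell cannot be told apart.

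NRF2 is a transcription factor that KEAP1 holds in the cytoplasm and marks for degradation in unstressed cells. Oxidants and electrophiles modify KEAP1, NRF2 then accumulates in the nucleus, pairs with a small MAF protein and binds antioxidant response elements near its target genes. The targets make glutathione, reduce thioredoxin and peroxiredoxins, and detoxify quinones and heme. Several glutathione S-transferases are counted among NRF2 targets, and they are also driven by other liver factors. Since NRF2 is controlled mainly at the protein level, its own transcript need not change when its targets do.

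Short stretches of promoter sequence are shown because the antioxidant response element is the sequence that NRF2 binds near its target genes. Its core was searched as TGACNNNGC on either strand of RefSeq promoter windows of GRCh38.p14, from 250 bases before to 50 bases after each annotated start. A window was matched for 9 of the 10 genes, all but HMOX1, with 12 windows in all. The core occurred in 4 of these, belonging to GCLM, TXNRD1 and KEAP1. NFE2L2, NQO1, GCLC, TXN, SRXN1 and OSGIN1 had no match. Among transferase genes searched likewise, GSTA1 and GSTA2 had no match and GSTA4 had 1, which is not shown. The core occurred in 13.3% of all 35116 promoter windows. The AP-1 motif TGANTCA, whose letters can overlap those of the element, was searched on either strand too. It occurred in 7.71% of all windows and in 1 window of the 10 genes, that of OSGIN1, and none of the antioxidant response element matches held it. Capitals mark the motif, and each sequence is written so that the motif reads 5′ to 3′.
GCLM, chr1:93909446-93909474, plus strand, opposite to the gene: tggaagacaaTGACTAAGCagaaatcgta
TXNRD1, upstream start, chr12:104215670-104215698, plus strand: acacgggctaTGACTTCGCtgttgtcacc
TXNRD1, downstream start, chr12:104286920-104286948, minus strand, opposite to the gene: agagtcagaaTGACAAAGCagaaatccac
KEAP1, downstream start, chr19:10502784-10502812, plus strand, opposite to the gene: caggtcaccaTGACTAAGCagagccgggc
OSGIN1, AP-1 motif, chr16:83953133-83953159, plus strand: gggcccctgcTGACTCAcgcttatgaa
The GCLM match lies 34 bases and the KEAP1 match 31 bases upstream of the start of its window, counted along the gene. The upstream TXNRD1 window and the KEAP1 window each held a further match that is not shown. These matches describe letters in the windows only, and elements farther from the start were not searched.

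Each library held 60686786 to 72708682 reads counted on genes. MTREX, the current symbol of the MTR4 gene, had a mean of 78.0 ± 8.25 CPM (counts scaled by TMM to library size) in control and of 45.8 ± 2.60 CPM in MTR4 KD (SD, n = 3 in each), with an adjusted p of 0.00641 from edgeR's test. The libraries differed in the share of reads without a unique alignment, which was 34.7% to 37.5% in 3 libraries (MTR4 KD replicate 3, control replicates 1 and 3) and 14.8% to 18.2% in the other 3 libraries. This split is called the alignment class below, and calls are given without it and, for each gene list and each named gene whose call it changes, also with it as a covariate. All 11 hepatocyte lineage markers were detected, and their summed level was 24223 to 25696 CPM in the control and 24313 to 26147 CPM in the MTR4 KD libraries. Of 11 matched markers of blood, endothelial and stromal cells, 7 stayed under 1 CPM in every library, and the summed level was 7.82 to 10.8 CPM in the control and 5.88 to 11.3 CPM in the MTR4 KD libraries. Of the 11 hepatocyte markers, 3 were called higher in MTR4 KD (ALB, APOA1 and TTR) and 0 lower, and 4 had negative log2 fold changes (AFP, APOA2, SERPINA1 and TF), with AFP lower in every MTR4 KD library than in every control library. There were 4 higher and 0 lower by unadjusted p-values under 0.05, and DESeq2 called 4 higher and 0 lower. With the alignment class as a covariate, 4 were called higher (FGB in addition) and 0 lower. Of all tested genes, edgeR called 1.48% higher and 2.12% lower, or 9.43% and 10.8% with the class. The shares were 8.93% and 9.84% by unadjusted p-values, and 2.71% and 3.83% with DESeq2, of the genes to which it gave an adjusted p. Further, mitochondrial genes took 5.80% of counts in MTR4 KD replicate 3 and 3.04% to 3.99% in the others. The part of the mitochondrial share in the results below was not tested. That of the alignment class is described only by the fits with it as a covariate and by differences within each class.

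Of the 10 genes, only OSGIN1 passed an adjusted p-value of 0.05 in edgeR's quasi-likelihood test of MTR4 KD against control, and it rose. None fell. Of all tested genes, 1.48% were called higher and 2.12% lower. By unadjusted p-values under 0.05, 4 genes were higher and 0 lower, and DESeq2 called 2 higher (OSGIN1 and HMOX1) and 0 lower. Of all tested genes, 8.93% were higher and 9.84% lower by unadjusted p-values, and DESeq2 called 2.71% higher and 3.83% lower of the 17480 genes to which it gave an adjusted p. With limma-voom 1 of the 10 was higher and 0 lower, beside 1.38% and 2.00% of all tested genes. With the alignment class as a covariate, 4 of the 10 were called higher (OSGIN1, HMOX1, KEAP1 and SRXN1) and 0 lower, where 9.43% of all tested genes were called higher and 10.8% lower. In 5 of the 10 genes every MTR4 KD library lay above every control library, and in 1 gene (NQO1) every MTR4 KD library lay below. These patterns were found in 12.1% and 12.6% of all tested genes. The median log2 fold change of the 10 genes was 0.07, and that of all tested genes was 0.01.

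**Figure D1:**
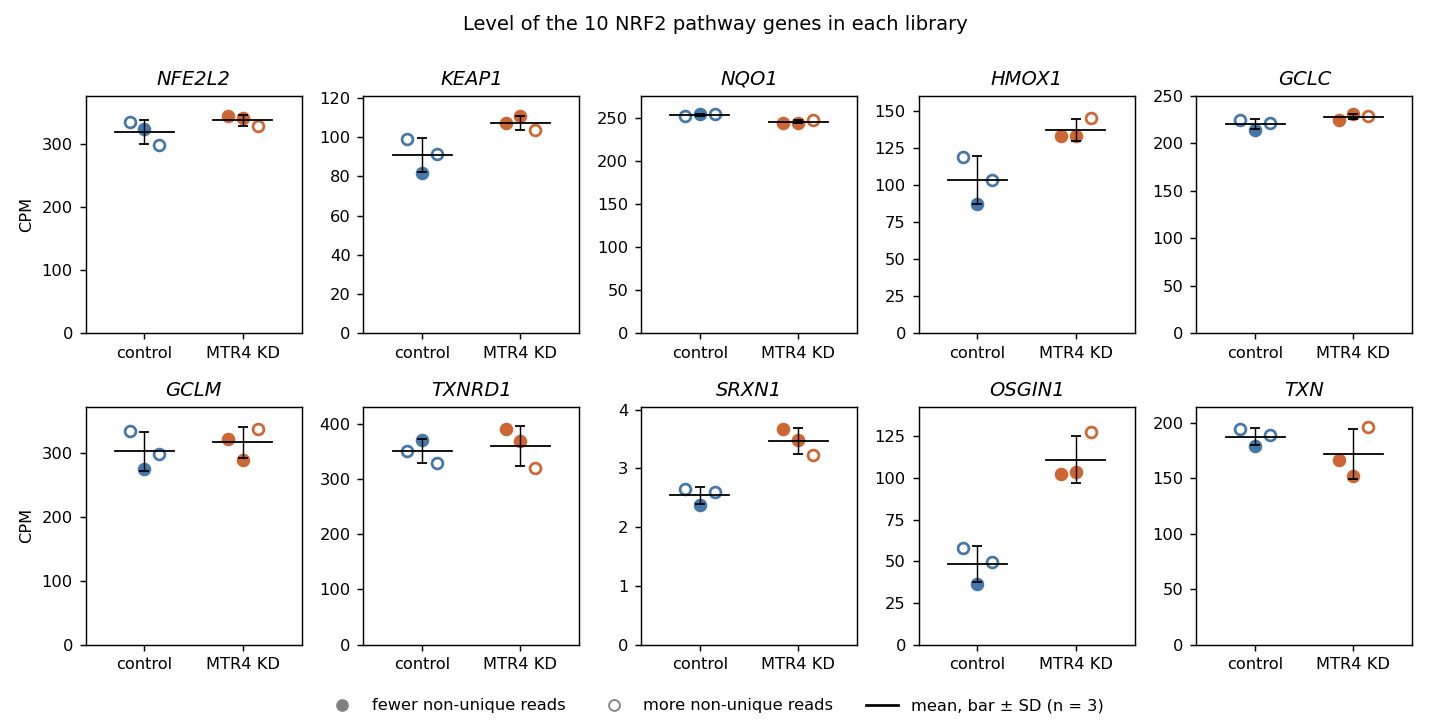
Level of each of the 10 genes in CPM (vertical axes from 0, scales differ between panels) in the 3 control and 3 MTR4 KD libraries, with filled points for libraries with fewer and open points for libraries with more non-unique reads, and with the mean and SD. The groups lie far apart for OSGIN1 (36.6 to 58.02 against 102.3 to 127.6 CPM), while NFE2L2, GCLM, TXNRD1 and TXN overlap.

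OSGIN1 (ENSG00000140961, chromosome 16, 83953240 to 83966332 on GRCh38) encodes an oxidative stress induced growth inhibitor and is a target of NRF2. Its level was 58.02, 36.6 and 49.5 CPM in the control replicates (in the order 1, 2, 3, as for every gene below) and 102.3, 103.3 and 127.6 CPM in the MTR4 KD replicates. All MTR4 KD libraries were thus well above all control libraries, and in each group the libraries with more non-unique reads were the higher ones. The rise was 2.31-fold, with a 95% interval from 1.75 to 3.06, and on the log2 scale 1.21 with a standard error of 0.173 (adjusted p = 0.0134 from edgeR's test). With the alignment class as a covariate the rise was 2.57-fold (2.33 to 2.84, adjusted p = 2.20e-08 from edgeR's test), and the log2 difference was 1.25 within the class with more and 1.49 within the class with fewer non-unique reads. The size of the change did not rest on any library, as the log2 fold change stayed between 1.04 and 1.37 when each was left out. The call did, since the adjusted p from edgeR's test was 0.0790 without control replicate 3, 0.0549 without MTR4 KD replicate 1 and 0.0707 without MTR4 KD replicate 2.

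HMOX1 (ENSG00000100292, chromosome 22, 35381096 to 35394207) encodes heme oxygenase 1, which breaks down heme and is induced by NRF2 once the repressor BACH1 leaves its enhancers. It stood at 119.0, 86.8 and 103.4 CPM in the control replicates and at 132.7, 132.7 and 145.3 CPM in the MTR4 KD replicates. No MTR4 KD library reached down to the highest control library, although control replicate 1 came near. The ratio of the groups was 1.33 (95% interval 1.10 to 1.60), with an adjusted p of 0.116 from edgeR's test. It was 1.41 (1.29 to 1.55) with the alignment class as a covariate, with an adjusted p of 9.78e-05, and the adjusted p of DESeq2's Wald test was 0.0302. BACH1 itself was at 51.7 ± 5.43 CPM and 56.3 ± 7.14 CPM in control and MTR4 KD (SD, n = 3 in each), and its log2 fold change of 0.12 did not pass the test (adjusted p = 0.623).

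The gene of the factor itself, NFE2L2 (ENSG00000116044, chromosome 2, 177230303 to 177264727), was at 334.6, 322.9 and 298.5 CPM in the control and at 343.4, 341.1 and 327.4 CPM in the MTR4 KD replicates. The groups overlapped, and the ratio of 1.06 had a 95% interval from 0.955 to 1.17 (adjusted p = 0.547 from edgeR's test). Counts of RNA do not show the amount of NRF2 protein. In the annotation, 190 of the 2446 bases of the main NFE2L2 transcript overlap a gene on the other strand, as do 575 of 2521 for NQO1 and 252 of 3785 for GCLC. The strand setting of the counting is not given in the sources used here, and those other genes had mean counts of at most 60.7 reads. KEAP1 (ENSG00000079999, chromosome 19, 10486125 to 10503356) was at 99.0, 81.8 and 91.3 CPM in the control and at 107.4, 110.5 and 103.4 CPM in the MTR4 KD replicates. All MTR4 KD libraries were higher, by 1.18-fold (1.04 to 1.35, adjusted p = 0.174 from edgeR's test). With the alignment class as a covariate the ratio was 1.20 (1.10 to 1.32, adjusted p = 0.00804), and the log2 difference was 0.12 within the class with more and 0.41 within the class with fewer non-unique reads.

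GCLC and GCLM encode the catalytic and the modifier subunit of glutamate-cysteine ligase, the rate-limiting enzyme of glutathione synthesis. GCLC (ENSG00000001084, chromosome 6, 53497341 to 53545101) was at 224.2, 214.2 and 221.4 CPM in the control and at 225.0, 230.4 and 228.8 CPM in the MTR4 KD replicates. Every MTR4 KD library was higher, but by very little, with a ratio of 1.04 (95% interval 0.951 to 1.13, adjusted p = 0.651 from edgeR's test). GCLM (ENSG00000023909, chromosome 1, 93885199 to 93909430) was at 335.1, 274.8 and 298.9 CPM in the control and at 323.1, 290.0 and 338.3 CPM in the MTR4 KD replicates. Its groups overlapped (ratio 1.05, 95% interval 0.900 to 1.22, adjusted p = 0.757 from edgeR's test).

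NQO1 (ENSG00000181019, chromosome 16, 69709401 to 69726560), the quinone reductase gene most often read as a marker of NRF2 activity, had the smallest spread between libraries of a group relative to its mean. It was at 252.3, 254.5 and 253.9 CPM in the control and at 244.3, 244.3 and 247.9 CPM in the MTR4 KD replicates. All MTR4 KD libraries were slightly below all control libraries. The ratio was 0.968, with a 95% interval from 0.892 to 1.05 (adjusted p = 0.678 from edgeR's test), so a rise of NQO1 by more than 1.05-fold lay outside the interval. Over all alternative analyses its log2 fold change stayed between -0.06 and -0.04.

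In the thioredoxin system, TXN encodes thioredoxin, TXNRD1 the reductase that restores it, and SRXN1 sulfiredoxin, which repairs overoxidized peroxiredoxins. TXN (ENSG00000136810, chromosome 9, 110243810 to 110256507) was at 194.7, 179.4 and 189.2 CPM in the control and at 166.8, 152.4 and 196.4 CPM in the MTR4 KD replicates. The lowest and the highest libraries were both MTR4 KD libraries, and the ratio was 0.915 (95% interval 0.780 to 1.07, adjusted p = 0.546 from edgeR's test). The annotation names 7 pseudogenes after TXN, with which reads can be shared. TXNRD1 (ENSG00000198431, chromosome 12, 104215779 to 104350307) was at 350.9, 371.5 and 328.5 CPM in the control and at 389.8, 368.6 and 320.0 CPM in the MTR4 KD replicates, again with overlap (ratio 1.03, 0.889 to 1.18, adjusted p = 0.865).

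SRXN1 (ENSG00000271303, chromosome 20, 646615 to 653200) had the fewest reads of the 10 genes, with 163, 172 and 157 reads in the control and 225, 233 and 198 reads in the MTR4 KD replicates. These were 2.64, 2.38 and 2.60 CPM against 3.67, 3.49 and 3.23 CPM. The groups did not overlap, and the ratio was 1.36 (95% interval 1.11 to 1.67, adjusted p = 0.114 from edgeR's test). With the alignment class as a covariate it was also 1.36, with an adjusted p of 0.0376. In the annotation used here, 2292 of the 2528 bases of the main SRXN1 transcript are shared with another counted gene on the same strand (ENSG00000270299), which had a mean count of 16.2 reads. How reads were divided between these genes is not given in the sources used here, so the level and change of SRXN1 are uncertain.

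**Figure D2:**
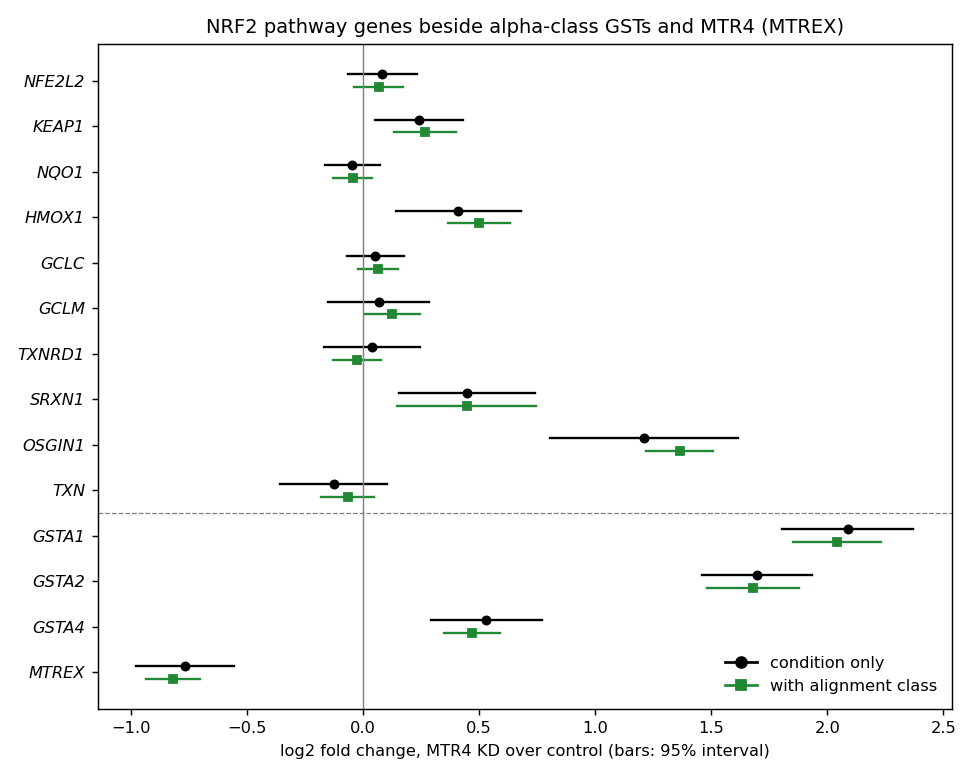
Log2 fold change of MTR4 KD over control with its 95% interval for the 10 genes (above the dashed line) and, for comparison, GSTA1, GSTA2, GSTA4 and MTREX, from the fit with condition only (circles) and with the alignment class as a covariate (squares). The intervals of NFE2L2, NQO1, GCLC, TXNRD1 and TXN include 0 in either fit, and OSGIN1 stands between those genes and GSTA1.

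The alignment class was spread unevenly over the groups, with 2 of 3 control and 1 of 3 MTR4 KD libraries in the class with more non-unique reads. OSGIN1, HMOX1, KEAP1 and SRXN1 were higher in MTR4 KD within each class, and their difference was larger in the class with fewer non-unique reads. The same order held, with smaller log2 differences, for NFE2L2 (0.05 and 0.08), GCLC (0.04 and 0.09) and GCLM (0.09 and 0.16). The log2 difference of HMOX1 was 0.39 within the class with more and 0.61 within the class with fewer non-unique reads, and that of SRXN1 was 0.30 and 0.59. In the latter class the control was replicate 2 alone. It had the lowest level of all libraries in OSGIN1, HMOX1, KEAP1, SRXN1, GCLC and GCLM. The differences of TXNRD1 and TXN had opposite signs in the classes. For TXNRD1 the log2 difference was -0.09 in the former class and 0.03 in the latter, and for TXN it was 0.03 and -0.17. Whether the difference in alignment or another property of control replicate 2 had a part in this was not tested.

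**Figure D3:**
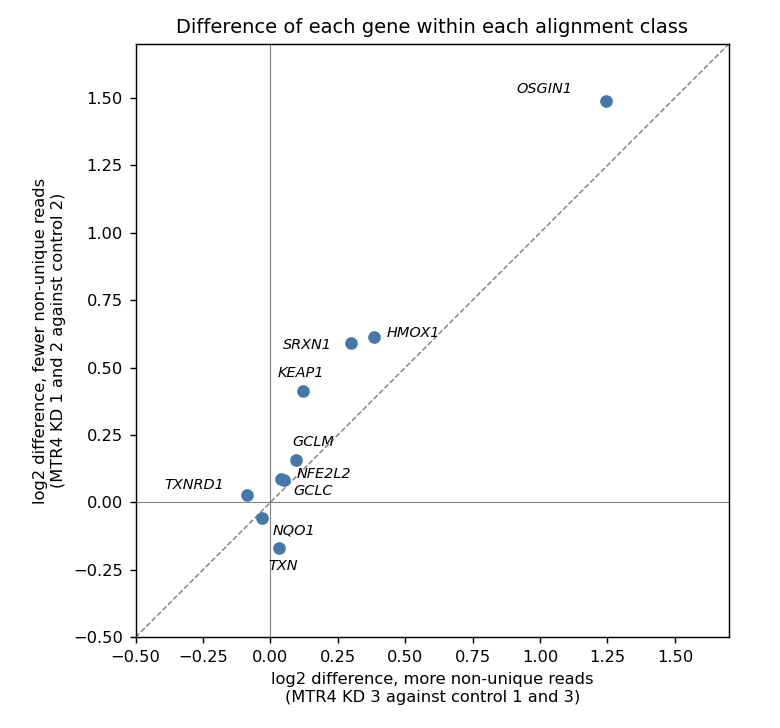
Log2 difference of MTR4 KD from control for each of the 10 genes within the libraries with more (horizontal axis) and with fewer (vertical axis) non-unique reads, as the log2 ratio of mean CPM, with a dashed line of equal values. OSGIN1 lies at 1.25 and 1.49. It lies above the line, as do HMOX1, SRXN1, KEAP1, GCLM, GCLC, NFE2L2 and TXNRD1, while NQO1 and TXN lie below.

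By level per length (CPM per kilobase of the main transcript), the control libraries ranked the genes in the order TXN, NFE2L2, NQO1, TXNRD1, HMOX1, GCLM, GCLC, KEAP1, OSGIN1 and SRXN1. TXN stood at 254.8 ± 10.5, NFE2L2 at 130.3 ± 7.55, NQO1 at 100.6 ± 0.452 and TXNRD1 at 90.7 ± 5.58 CPM per kilobase (SD, n = 3). HMOX1 (66.3 ± 10.4), GCLM (62.0 ± 6.21) and GCLC (58.1 ± 1.36) followed, and neighbours among these 3 overlapped between control libraries. KEAP1 was at 35.4 ± 3.35 and OSGIN1 at 25.0 ± 5.61, and no other neighbours in the order overlapped. In the MTR4 KD libraries OSGIN1 was at 57.8 ± 7.45, above KEAP1 at 41.8 ± 1.40 CPM per kilobase. The low value of SRXN1 is not comparable, because of the shared bases given above.

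The pattern of NFE2L2 over the 6 libraries was most like that of MIOS, LATS2 and ZNF75D, with Pearson correlations of log2 CPM of 0.992, 0.987 and 0.982 among 12860 genes with a mean of at least 100 counts. For OSGIN1 the most alike were PDK2 (0.993), TIMM10 (0.993) and MIR1915HG (0.992). Of these, PDK2 rose with a log2 fold change of 0.40 and MIR1915HG with one of 0.43 (adjusted p = 0.0369 and 0.0407 from edgeR's test), while the value of TIMM10 was 0.16 (adjusted p = 0.183). The correlations are descriptions over 6 libraries that share condition and alignment class.

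The glutathione S-transferases conjugate glutathione to electrophiles. Of 16 tested members, 3 rose, all of the alpha class and on chromosome 6, and 0 fell. Of all tested genes, 1.48% rose and 2.12% fell. GSTA3, also of the alpha class, had a ratio below 1 (0.774, 95% interval 0.541 to 1.11) and was not called (adjusted p = 0.425 from edgeR's test). By unadjusted p-values under 0.05, 5 of the 16 were higher and 1 lower, beside 8.93% and 9.84% of all tested genes. DESeq2 and limma-voom also called 3 of the 16 higher and 0 lower. Beside these stood 2.71% and 3.83% of the genes to which DESeq2 gave an adjusted p, and 1.38% and 2.00% with limma-voom. Taking the class as a covariate, edgeR called 7 higher, GSTM2, GSTP1, GSTK1 and GSTZ1 in addition, and 1 lower, MGST2, beside 9.43% and 10.8% of all tested genes. GSTA1 was at 9.10, 11.7 and 10.2 CPM in the control and at 40.1, 48.8 and 42.8 CPM in the MTR4 KD replicates, a rise of 4.25-fold (95% interval 3.50 to 5.17, adjusted p = 0.000505 from edgeR's test). GSTA2 rose 3.24-fold (2.75 to 3.82, adjusted p = 0.000532) and GSTA4 1.44-fold (1.22 to 1.70, adjusted p = 0.0383). The calls of GSTA1 and GSTA2 held in all 14 alternative analyses, and that of GSTA4 in 9, being lost without control replicate 1 or 3 or any 1 MTR4 KD replicate. How reads divide between the similar GSTA1 and GSTA2 is uncertain. GSTP1, the pi-class enzyme and the transferase with the highest level per length in control (1562 CPM per kilobase), had a log2 ratio of 0.11 for MTR4 KD over control (adjusted p = 0.362), or 0.14 with the alignment class (adjusted p = 0.0296 from edgeR's test), and all its MTR4 KD libraries lay above all control libraries. Among the others, GSTM3 was at -0.05 (adjusted p = 0.782) and MGST1 at -0.15 (adjusted p = 0.354).

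The level of each of the 10 genes was then set against that of GSTA1 in the same library. The ratio of NQO1 reads to GSTA1 reads was 27.7, 21.8 and 24.9 in the control and 6.10, 5.01 and 5.79 in the MTR4 KD replicates. For GCLC the ratio was 24.6, 18.4 and 21.7 against 5.62, 4.72 and 5.35. For OSGIN1, the member that rose, it was 6.38, 3.14 and 4.86 against 2.55, 2.12 and 2.98. In each of the 10 genes every MTR4 KD library had a lower ratio than every control library, by 1.82-fold on average for OSGIN1 and by 3.13-fold to 4.68-fold for the other 9. The exact permutation test over the 6 libraries gave a two-sided p of 0.1 for each, also after adjustment over the 10 genes, which is the smallest p that 3 against 3 libraries can give. GSTA1 was taken for this comparison because it was known to rise, so neither the direction nor the size of these ratios is an independent result. All 10 ratios share GSTA1 as the divisor, so the 10 tests are not separate tests.

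Other genes of the pathway were counted in 7 lists of 110 genes, of which 98 were tested, the transferases included. Of these, 4 were called higher and 6 lower in MTR4 KD, beside 1.48% and 2.12% of all tested genes. With the alignment class as a covariate, 18 were higher and 19 lower, beside 9.43% and 10.8%. For the counts of each list below, the shares of all tested genes higher and lower were 8.93% and 9.84% by unadjusted p-values. They were 2.71% and 3.83% with DESeq2, of the genes to which it gave an adjusted p, and 1.38% and 2.00% with limma-voom.

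Among 15 tested regulators and partners of NRF2, 0 rose and 1 fell. By unadjusted p-values under 0.05, 2 were higher and 3 lower, and DESeq2 called 0 higher and 2 lower. Adding the class as a covariate, edgeR called 2 higher (SQSTM1 and DPP3) and 3 lower (MAFF, MAFK and NFE2L3). Of all tested genes, that fit called 9.43% higher and 10.8% lower. The gene that fell without the class was MAFF, a small MAF protein that pairs with NRF2 or BACH1. It was at 32.4, 28.9 and 28.6 CPM in the control and at 19.7, 20.5 and 18.8 CPM in the MTR4 KD replicates, a ratio of 0.657 (95% interval 0.576 to 0.748, adjusted p = 0.00998 from edgeR's test). MAFK, another small MAF gene named after its values were seen, was at 134.7 ± 22.1 CPM and 76.1 ± 17.9 CPM in control and MTR4 KD (SD, n = 3 in each, adjusted p = 0.0613 from edgeR's test), and its adjusted p was 1.55e-05 with the alignment class. The third small MAF gene, MAFG, had a log2 ratio of -0.02 for MTR4 KD over control (adjusted p = 0.926). SQSTM1, whose protein p62 sequesters KEAP1, had a log2 ratio of 0.24 for MTR4 KD over control (adjusted p = 0.104), and of 0.27 with the alignment class (adjusted p = 0.00106 from edgeR's test). CUL3, the ubiquitin ligase scaffold that KEAP1 uses, had one of 0.04 (adjusted p = 0.731). The call of MAFF was lost without control replicate 1, MTR4 KD replicate 1 or MTR4 KD replicate 2.

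In the list of glutathione synthesis and use, 0 of 19 tested genes rose and 2 fell. By unadjusted p-values under 0.05, 2 were higher and 4 lower, beside 8.93% and 9.84% of all tested genes. DESeq2 called 0 higher and 3 lower. Once the class was a covariate, 2 were called higher (SLC3A2 and GGT1) and 6 lower, beside 9.43% and 10.8% of all tested genes. Among the 6 were GSR, GPX2, CHAC1, GLRX and TKT. Of those that fell, TKT, a transketolase gene, was at 406.2, 380.1 and 436.0 CPM in the control and at 312.1, 313.0 and 335.4 CPM in the MTR4 KD replicates, a ratio of 0.786 (95% interval 0.701 to 0.881, adjusted p = 0.0451 from edgeR's test). SLC7A11, the cystine transporter gene, had a log2 ratio of -0.14 for MTR4 KD over control (adjusted p = 0.440). Of 12 tested genes of the thioredoxin and peroxiredoxin system, 0 were called by edgeR in either direction, with 2 higher and 1 lower by unadjusted p-values under 0.05. DESeq2 and limma-voom each called 1 higher, the catalase gene CAT (log2 fold change 0.28, adjusted p = 0.0505 from edgeR's test), and 0 lower. In the fit with the class, 2 were called higher, CAT (adjusted p = 0.000137) and TXNRD2, and 1 lower, PRDX4. Of all tested genes, 9.43% were called higher and 10.8% lower in this fit. The peroxiredoxin gene PRDX1, often used as an NRF2 target, had a log2 ratio of 0.02 for MTR4 KD over control (adjusted p = 0.958).

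Among quinone, carbonyl and xenobiotic targets, 0 of 23 tested genes rose and 2 fell. By unadjusted p-values under 0.05, 1 was higher and 7 lower, and DESeq2 called 0 higher and 2 lower. In the fit with the class, 0 were called higher and 7 lower, namely AKR1B1, AKR1B10, CBR1, ALDH3A2, UGT1A1, UCHL1 and CABYR, beside 9.43% and 10.8% of all tested genes. UGT1A1, which conjugates bilirubin, was at 79.9, 74.7 and 80.1 CPM in the control and at 36.5, 40.2 and 39.1 CPM in the MTR4 KD replicates, a ratio of 0.494 (adjusted p = 0.000625 from edgeR's test). The genes of the UGT1A locus share exons, so the division of reads among them is uncertain. AKR1B1, an aldose reductase gene, had a ratio of 0.803 (95% interval 0.727 to 0.887, adjusted p = 0.0396). AKR1C1 and PIR, both used as readouts of NRF2, had log2 fold changes of -0.05 (adjusted p = 0.742) and -0.0023 (adjusted p = 0.987), of which the former can share reads with AKR1C2.

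Of 7 tested heme and iron targets, 1 rose and 0 fell. Without adjustment, 2 were higher and 0 lower at p under 0.05, and DESeq2 called 1 higher and 0 lower. When the class was a covariate, 4 were called higher (SLC40A1, BLVRB, FTL and SLC48A1) and 0 lower, beside 9.43% and 10.8% of all tested genes. The iron exporter gene SLC40A1 (ferroportin) was at 164.8, 184.5 and 153.6 CPM in the control and at 296.6, 293.4 and 236.0 CPM in the MTR4 KD replicates, a rise of 1.64-fold (95% interval 1.37 to 1.96, adjusted p = 0.0172 from edgeR's test). FTH1, the ferritin heavy chain gene, could not be judged without the class. Its level was 504.1 to 529.4 CPM in the libraries with more and 31.9 to 34.4 CPM in those with fewer non-unique reads, whatever the condition. With the class as a covariate its ratio was 0.999 (95% interval 0.931 to 1.07, adjusted p = 0.986 from edgeR's test). Its log2 difference was 0.04 within the class with more and -0.05 within the class with fewer non-unique reads. Of 6 efflux transporter genes, 0 rose and 1 fell, ABCC1, with a ratio of 0.755 (0.664 to 0.860, adjusted p = 0.0407). By unadjusted p-values 0 were higher and 2 lower, and DESeq2 called 0 higher and 1 lower. Fitted with the class, 1 was called higher (ABCC4) and 1 lower (ABCC1), beside 9.43% and 10.8% of all tested genes. The calls of SLC40A1 and TKT were lost without control replicate 1 or 3 or MTR4 KD replicate 1 or 2, and that of TKT also without MTR4 KD replicate 3. Those of AKR1B1 and ABCC1 were lost whichever of the 6 libraries was left out, and that of AKR1B1 also with total counts as the scaling. The call of UGT1A1 held in all 14 alternative analyses.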

How the data were processed

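Raw counts of reads per Ensembl gene were deposited for 6 libraries, 3 control and 3 MTR4 KD. Per the labels and the methods of the study, the authors aligned reads to GRCh38 with HISAT2 2.1.0 and counted them with HTSeq; the counting mode and strand setting are not given in the sources used here. Counts as deposited were filtered with edgeR 4.0.16 (filterByExpr, minimum 10), scaled by TMM and compared by its quasi-likelihood test in a model of condition alone, with Benjamini-Hochberg adjustment over all 18075 tested genes and a threshold of 0.05 on the adjusted p. CPM used TMM-scaled library sizes. Intervals of 95% came from the same fit. Symbols, transcript lengths, gene overlaps, pseudogene counts and the mitochondrial share came from a GENCODE annotation mapped to GRCh37. Coordinates came from RefSeq on GRCh38.p14. SOD2, GSTT1, GSTT4 and PECAM1 had no matched identifier and were not analysed here, and 1 gene of the glutathione list is counted but not reported here.

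The named genes were the 10 members, MTREX, GSTA1, GSTA2, the called genes of each other list, and transferases; the others given by value were chosen after their values were seen. The members and lists were chosen with earlier results of these data known. Alternatives were limma-voom (3.58.1), DESeq2 1.42.0, other scalings and filters, the replicate number as a block, the alignment class (over 30% of reads without a unique alignment or not), and each library left out. Same-numbered libraries did not deviate together in all pairs (correlations of -0.24, 0.32 and 0.35 across genes), so numbers were not read as pairs. Control and MTR4 KD libraries of one alignment class had correlations of 0.32 to 0.36, and those of different classes -0.49 to -0.23, whatever their numbers. Replicates differed by more than sampling noise. The chi-square per degree of freedom was 4.54 and 7.52 for replicates of one alignment class and 74.15 to 83.12 for replicates of different classes. The spread between libraries beyond sampling noise, as edgeR's common coefficient of variation, was 0.175 with condition only and 0.057 with the alignment class. The main test was also run on simulated counts of independent libraries. These held no alignment class, so that run does not show how the test performs on these libraries. R 4.3.3 and Python 3.11.15 were used.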

Additional observations from a re-analysis of the deposited data

How the results depend on the processing

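The number of the 10 genes called higher was 1 in the main analysis, with limma-voom, with DESeq2's size factors, with total counts, with either other filter, and with a fold change over 2 as well. It was 2 with DESeq2's Wald test and 4 with the alignment class as a covariate, and between 0 and 1 with each library left out. The number called lower was 0 in all of these. With the replicate number as a block, 1 gene was higher and 0 lower, and of the other pathway genes 5 were higher and 8 lower; the main counts were 4 and 6, and the block changed no call among the 10 genes. With the alignment class, 18 of the other pathway genes were higher and 19 lower. With each library left out, 2 to 4 were higher and 1 to 5 lower. The log2 fold change of OSGIN1 stayed between 1.04 and 1.37. The direction was kept in all 14 alternatives for 8 of the 10 genes. The log2 fold change of TXNRD1 was -0.028 with the alignment class, -0.0214 without MTR4 KD replicate 1 and -0.008 without control replicate 3, and at most 0.12 with another library left out. That of GCLM was -0.0045 without control replicate 2 and 0.14 at most with another library left out. The cause of these sign changes was not tested. Reads without a unique alignment were not counted, which limits what can be said of genes with close copies.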
